A study of Mus musculus with 4 samples.

Results

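The 10 transcription factor genes described here, Pdx1, Nkx6-1, Nkx2-2, Neurod1, Isl1, Pax6, Foxa2, Mnx1, Insm1 and Rfx6, were taken by name from the array's platform annotation, out of 17711 named genes. The annotation gave them 15 probes, with 6 genes on 1 probe, 3 genes on 2 probes and Pax6 on 3. RNA of isolated pancreatic islets from C57BL/6 mice aged 12 weeks was hybridised to 4 Illumina bead arrays. Of these, 2 held wild type RNA and 2 held RNA of animals labelled as knockouts of Bmpr1a, a bone morphogenetic protein receptor, under the control of Pdx1. Pdx1 itself is active in the whole early pancreatic epithelium, and the cells in which Bmpr1a was deleted here were not measured. The deleting transgene is not named in the labels, nor is its presence or absence in the wild type animals, and it is not stated if the arrays of a genotype came from separate animals or pools. P-values thus reflect the spread between these arrays alone, and that spread may be technical.

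Beta cells keep their identity through a network of DNA-binding proteins that bind each other's genes and the genes of insulin production and secretion. Pdx1, Nkx6-1, Mnx1 and Isl1 bind through a homeodomain, whose usual core site is TAAT. Nkx2-2 also binds through a homeodomain, and Pax6 adds a paired domain to its homeodomain. Neurod1 is a basic helix-loop-helix protein that pairs with E proteins on E-boxes (CANNTG), Foxa2 is a forkhead protein that opens chromatin, Insm1 is a zinc finger protein of endocrine precursors, and Rfx6 belongs to the winged-helix RFX family. Pdx1, Nkx6-1 and Mnx1 are largely beta cell factors in the adult mouse islet, whereas Neurod1, Isl1, Pax6, Insm1 and Rfx6 are shared with other islet endocrine cells.

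RefSeq promoter sequences (GRCm38.p6, the 250 bases before the annotated start) were matched for 9 of the 10 factor genes. Those of Pdx1 and Isl1 are shown as the factor genes with the highest positive change among brightest probes, and those of G6pc2 and Slc2a2 as targets of these factors whose transcripts were higher in knockout islets. Capitals mark the homeodomain core TAAT (or ATTA on the other strand) and the E-box CANNTG, 5′ to 3′ on the strand of the gene. The windows are chr5:147269847-147270096 on the plus strand for Pdx1, chr13:116309689-116309938 on the minus strand for Isl1, chr2:69210823-69211072 on the plus strand for G6pc2 and chr3:28697653-28697902 on the plus strand for Slc2a2.
Pdx1: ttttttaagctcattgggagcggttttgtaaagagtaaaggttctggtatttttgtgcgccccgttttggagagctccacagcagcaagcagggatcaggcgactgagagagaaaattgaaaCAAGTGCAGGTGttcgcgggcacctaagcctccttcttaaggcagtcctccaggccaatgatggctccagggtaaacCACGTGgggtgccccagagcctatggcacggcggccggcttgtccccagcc
Isl1: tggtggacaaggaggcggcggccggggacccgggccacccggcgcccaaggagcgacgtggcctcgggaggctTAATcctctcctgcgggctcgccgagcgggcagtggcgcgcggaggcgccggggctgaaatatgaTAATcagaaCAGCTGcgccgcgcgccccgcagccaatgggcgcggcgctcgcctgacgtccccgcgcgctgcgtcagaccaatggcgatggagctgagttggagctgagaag
G6pc2: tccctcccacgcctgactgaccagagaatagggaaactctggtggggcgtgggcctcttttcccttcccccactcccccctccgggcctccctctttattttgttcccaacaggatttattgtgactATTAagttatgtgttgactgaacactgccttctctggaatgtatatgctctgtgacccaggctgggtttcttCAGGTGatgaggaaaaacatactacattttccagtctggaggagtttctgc
Slc2a2: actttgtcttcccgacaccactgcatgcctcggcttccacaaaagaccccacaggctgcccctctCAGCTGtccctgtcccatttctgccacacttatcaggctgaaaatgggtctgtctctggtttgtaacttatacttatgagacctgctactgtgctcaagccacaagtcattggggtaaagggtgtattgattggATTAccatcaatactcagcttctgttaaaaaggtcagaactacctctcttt
The Pdx1 window held 3 E-boxes, of which CACGTG lay nearest to the start, and 0 TAAT cores. The Isl1 window held 2 TAAT cores and 1 E-box, and the G6pc2 and Slc2a2 windows shown held 1 of each. G6pc2 has a second annotated window, not shown, which held 3 TAAT cores and 4 E-boxes. Of the 12 annotated windows of the 9 factor genes, 8 (66.7%) held a TAAT core and 7 (58.3%) an E-box. The shares of all 32851 windows were 54.9% and 66.2%. By gene, 6 of the 9 held a TAAT core and 7 an E-box in 1 or more windows, with 3 windows from Foxa2. The GC-rich motif GGCGCC is its own reverse complement and is known to bind the Smads that act downstream of bone morphogenetic protein receptors. It was present in 3 of the 12 windows, 1 each of Nkx6-1, Isl1 and Foxa2, against 9.59% of all windows. Windows of the targets higher in knockout islets held it in 3 of 8 (37.5%), and GC content was not matched in these comparisons. The forkhead motif TGTTTAC (or GTAAACA) was in 0 of the 12, against 3.17% of all windows. Motifs were searched on both strands, and overlapping matches were counted. These are matches of letters and not measured binding sites.

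The islet identity of the samples was checked on Ins2, Iapp, Slc2a2, G6pc2 and Slc30a8, all above background on all 4 arrays. The Bmpr1a probe above background was at 9.68 and 9.69 on the wild type arrays and at 9.55 and 9.26 on the knockout arrays (normalized log2 intensity), a change of -0.28 ± 0.14 that did not pass (limma adjusted p = 0.204). Where this probe lies relative to the deleted part is not known here, so it checks nothing about the deletion. On each array 14785 to 16171 of the 46632 probes exceeded background. Lymphocyte transcripts differed widely between the genotypes: 16 of 17 tested marker genes fell, and their summed raw intensity was 19180 to 20936 in wild type and 5134 to 5477 in knockout samples, with 0 markers below background on all 4 arrays. Cd3d, Cd3e and Cd3g, subunits of the T cell receptor complex named after their values were seen, were above background on both wild type arrays and on neither knockout array. The lowest change of any marker was -6.07, for Mzb1 of antibody-secreting cells, above background on 1 of the 2 knockout arrays. The highest was that of the duct chloride channel gene Cftr, not well above background in wild type and at least 6.08-fold higher in knockout, while its other tested probe was at -0.22 and did not pass (adjusted p = 0.349). Of the markers of acinar cells, the enzyme-secreting cells around islets, 5 of 17 fell, with summed intensities of 95276 to 121685 in wild type and 81734 to 86441 in knockout. Of the alpha cell markers 6 of 10 fell, with summed intensities of 70726 to 70858 and 58729 to 64544. Of macrophage and dendritic cell markers 2 of 12 rose (16.7%) and 5 fell (41.7%), and of duct markers 1 of 7 rose (14.3%) and 2 fell (28.6%). Of endothelial markers 2 of 10 rose (20%), of fibroblast markers 2 of 8 fell (25%), and of delta, PP and epsilon cell markers 0 of 6 passed. Over all tested genes 14.5% rose and 11% fell. The share that fell was 94.1% of the lymphocyte, 60% of the alpha cell and 29.4% of the acinar markers. In whole-islet RNA, fewer cells of a type and less RNA per cell cannot be told apart.

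None of the 10 factors passed the test between genotypes. Probes entered the test if both arrays of 1 or both genotypes were above background (detection p below 0.05), as were 13 of the 15 factor probes and 9 of the 10 genes. With limma and an adjusted p threshold of 0.05, 0 of the 13 probes were called, while 25.5% of all 15639 tested probes were called, and 1 factor probe had an unadjusted p below 0.05. Changes, given as knockout minus wild type in normalized log2 intensity, ran from -0.30 to 0.56 over the 13 probes, with standard errors of 0.12 to 0.21, and 5 were positive and 8 negative. All 13 of the 95% intervals, unadjusted for the number of probes, lay between 0.594-fold and 1.98-fold, so that a 2-fold change in either direction was outside each of them under this scaling. The median change of the 9 tested genes, each by its brightest probe, was -0.06 and their median absolute change 0.16, beside 0.06 and 0.28 over all 9352 tested genes. The values of the genotypes did not overlap for 6 of the 13 probes (46.2%), 4 higher and 2 lower in knockout, beside 67.9% of all tested probes, 38.3% higher and 29.6% lower. By gene, 3 of 9 did not overlap and were higher and 0 were lower, beside 68.5% of all tested genes in either direction, 39.8% higher and 28.7% lower.

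**Figure D1:**
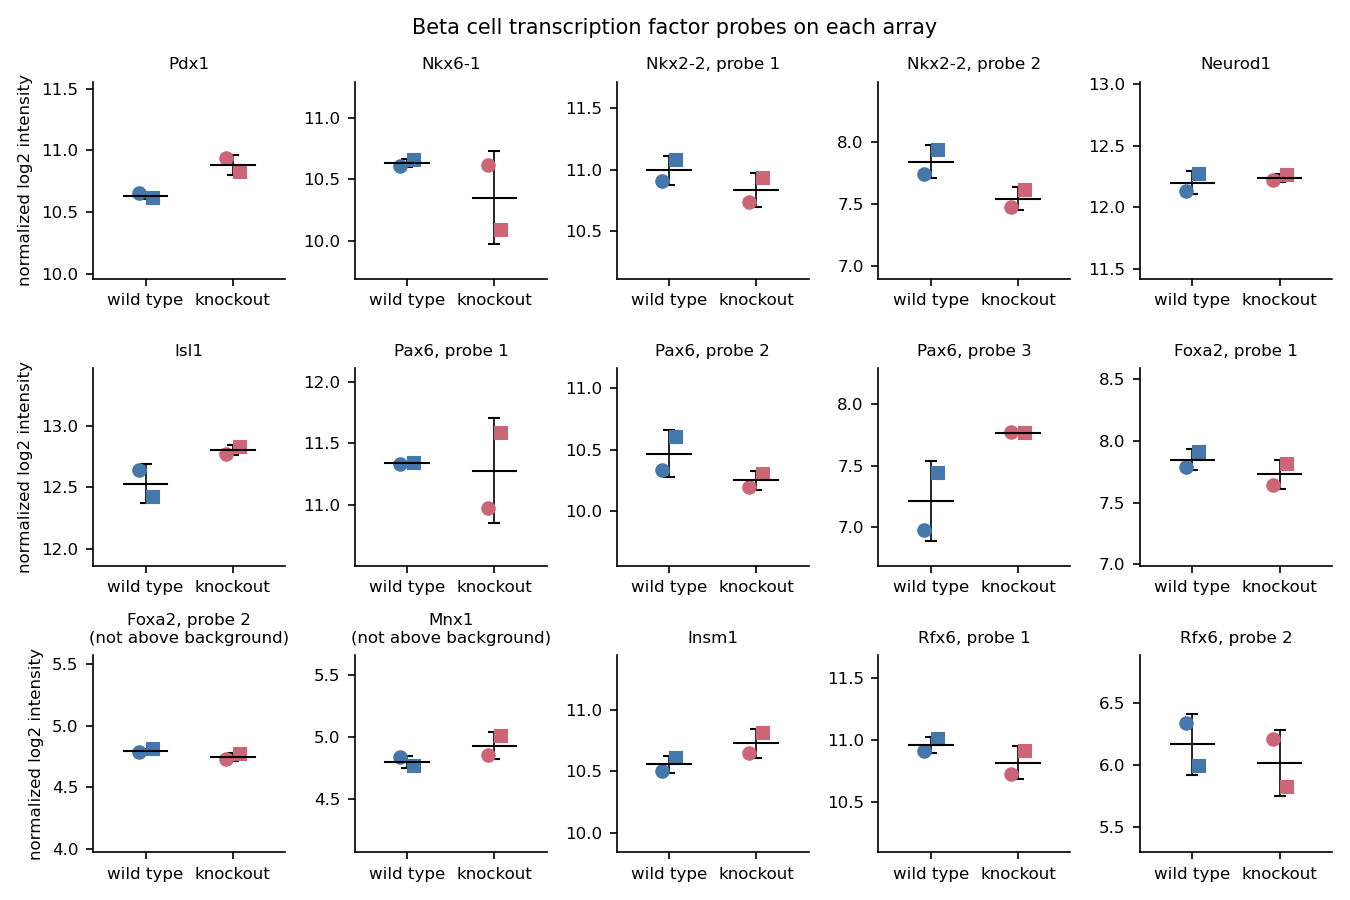
Normalized log2 intensity of each of the 15 factor probes on the 4 arrays, with circles for replicate 1 and squares for replicate 2, a bar for the genotype mean and an error bar of 1 SD (n = 2); each axis spans the same log2 range around the probe's own mean, and probes of a gene are numbered from the brightest. The knockout replicates lie farthest apart for Nkx6-1 and the brightest Pax6 probe.

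Pdx1, which starts pancreas formation and later activates the insulin genes, had raw intensities of 1489 and 1563 on wild type arrays 1 and 2 and of 2241 and 1953 on knockout arrays 1 and 2 (probe ILMN_2604604). Both knockout values were above both wild type values. After normalization Pdx1 was 10.63 ± 0.03 on wild type arrays and 10.88 ± 0.08 on knockout arrays (SD, n = 2). The change was 0.25 ± 0.12 (SE, 95% interval -0.05 to 0.55, adjusted p = 0.185) and did not pass.

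Nkx6-1, a homeodomain repressor that keeps alpha cell genes off in beta cells, had raw intensities of 1447 and 1601 in wild type and of 1825 and 1184 in knockout (ILMN_1245585). The knockout arrays lay on either side of the wild type pair, with normalized values of 10.62 and 10.09 beside 10.61 and 10.66. The gap of 0.53 between the knockout arrays was exceeded by 6.88% of all tested probes, and the standard errors over the beads of the probe were 129 and 104 intensity units on these arrays. The Nkx6-1 change was -0.28 ± 0.19 (adjusted p = 0.324) and did not pass, but without knockout 1 it was -0.54 and passed (adjusted p = 0.0471), and without knockout 2 it was -0.01.

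Mnx1, needed in the mouse for dorsal pancreas formation and for beta cell identity, was represented by 1 probe (ILMN_2765641) that stayed below the detection threshold on all 4 arrays. Its raw intensities were 63.0 and 52.5 in wild type and 64.0 and 74.2 in knockout, with a lowest detection p of 0.328. No change can be given for Mnx1, and its level was not detectable with this probe.

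Nkx2-2, which is needed for beta cell formation and represses alternative islet cell fates, was measured by 2 probes. The brighter probe (ILMN_1221619) had normalized values of 10.91 and 11.08 in wild type and of 10.74 and 10.93 in knockout, which overlapped. Its change was -0.16 ± 0.14 (adjusted p = 0.432). The dimmer Nkx2-2 probe (ILMN_1238550) was at 7.75 and 7.94 in wild type and at 7.48 and 7.61 in knockout, with both knockout values below both wild type values, and its change of -0.30 ± 0.14 did not pass either (adjusted p = 0.158).

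Neurod1, the E-box activator of insulin transcription, had raw intensities of 4089 and 4874 in wild type and of 5332 and 5169 in knockout (ILMN_1228141). The normalized values of 12.13 and 12.27 in wild type and 12.22 and 12.26 in knockout overlapped, and the change of 0.04 ± 0.13 was the smallest of the 13 probes (95% interval -0.26 to 0.35, adjusted p = 0.832).

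Insm1, which drives endocrine precursors towards hormone-producing cells, had raw intensities of 1353 and 1558 in wild type and of 1850 and 1933 in knockout (ILMN_1235931). Both knockout values were higher, at 10.65 and 10.81 after normalization against 10.51 and 10.61, but the change of 0.17 ± 0.13 did not pass (adjusted p = 0.370).

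Rfx6, which is needed for islet cell formation and for glucose-stimulated insulin secretion, was measured by 2 probes with overlapping genotypes. The brighter probe (ILMN_2734616) was at 10.91 and 11.01 in wild type and at 10.72 and 10.91 in knockout, a change of -0.14 ± 0.13 (adjusted p = 0.469). The dimmer Rfx6 probe (ILMN_1258337), with raw intensities of 112 to 140, was at 6.34 and 5.99 in wild type and at 6.21 and 5.82 in knockout, a change of -0.15 ± 0.19 (adjusted p = 0.589).

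Isl1, a LIM-homeodomain factor that acts with the adaptor Ldb1 in all islet endocrine cells, had raw intensities of 5974 and 5407 in wild type and of 7452 and 7431 in knockout (ILMN_2727472). Both knockout values were above both wild type values. Normalized values were 12.53 ± 0.16 in wild type and 12.80 ± 0.04 in knockout (SD, n = 2), and the change of 0.27 ± 0.14 did not pass (95% interval -0.06 to 0.60, adjusted p = 0.187).

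Pax6, which activates the insulin, glucagon and somatostatin genes, was the factor whose probes differed most among themselves. The brightest probe (ILMN_2447200) was at 11.33 and 11.34 in wild type and at 10.98 and 11.58 in knockout, so that the knockout arrays enclosed the wild type pair, and the gap of 0.61 between them was exceeded by 4.66% of all tested probes. Its change was -0.06 ± 0.21 (adjusted p = 0.857). The second Pax6 probe (ILMN_2504978) was at 10.34 and 10.60 in wild type and at 10.20 and 10.31 in knockout, with no overlap and a change of -0.22 ± 0.14 (adjusted p = 0.310). The dimmest probe (ILMN_2612187) went the other way, with raw intensities of 181 and 231 in wild type and of 286 and 276 in knockout. This Pax6 probe had the largest change of all 13 factor probes, 0.56 ± 0.18 (95% interval 0.13 to 0.98, unadjusted p = 0.0191 in limma), and did not pass over all tested probes (adjusted p = 0.0651). The second and the dimmest Pax6 probe are annotated to the same RefSeq transcript and the brightest to another cDNA, and which part of the gene each reads is not known here.

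Foxa2, a forkhead factor upstream of Pdx1 in the pancreas, was measured by 1 of its 2 probes. That probe (ILMN_1246216) was at 7.79 and 7.91 in wild type and at 7.65 and 7.81 in knockout, which overlapped, and changed by -0.12 ± 0.13 (adjusted p = 0.545). The other Foxa2 probe (ILMN_1229325), with raw intensities of 53.7 to 58.8, stayed below the detection threshold on all 4 arrays (lowest detection p of 0.778).

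**Figure D2:**
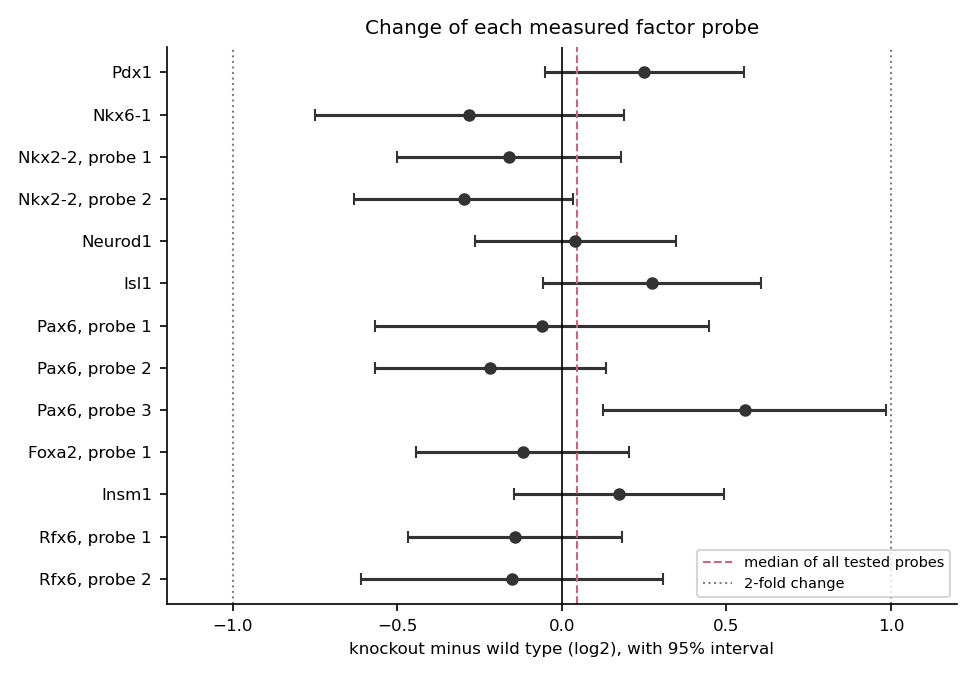
Change of each of the 13 tested factor probes, knockout minus wild type in normalized log2 intensity, with the 95% interval of limma's fit; dotted lines mark a 2-fold change and the dashed line the median of all tested probes (0.05). The dimmest Pax6 probe has an interval above 0, and the other 12 intervals include 0.

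Several factors were brighter in the raw intensities of the knockout arrays than after normalization, and the scaling decided the sign of 6 probes. The 1777 tested probes within the brightness range of the bright factor probes (normalized 10.36 to 12.66) had a median raw change of 0.22, which was 0.03 after quantile normalization. Median scaling puts the median of all 46632 probes at the same value on each array. Of these, 14785 to 16171 exceeded background on an array, so the median that was equated lay among probes below background. With this scaling the median change of all tested probes was 0.21 and that of this brightness range 0.32. Under that scaling Nkx6-1, the brighter Nkx2-2 and Rfx6 probes, the 2 brighter Pax6 probes and Foxa2 took a positive sign, at 0.04 to 0.21. Each of these 6 lay below the median of all tested probes except the brightest Pax6 probe, which lay just above it (0.214 beside 0.210). Pdx1 was at 0.56 ± 0.17 (adjusted p = 0.0352), Isl1 at 0.49 ± 0.16 (adjusted p = 0.0488) and the dimmest Pax6 probe at 0.71 ± 0.21 (adjusted p = 0.0299), and all 3 passed. Over all 15639 tested probes 4908 passed with median scaling, 3517 higher and 1391 lower. Insm1 was at 0.49 ± 0.17 and did not pass (adjusted p = 0.0516). Relative to the median of all tested probes the 3 that passed were at 0.35, 0.28 and 0.50, beside 0.20, 0.23 and 0.51 under quantile normalization. Pdx1 and Isl1 lay within the brightness range above, whose median with median scaling was 0.32. Isl1 set the upper end of that range, and neither Pdx1 nor Isl1 was compared with probes of its own brightness alone. The dimmest Pax6 probe lay below that range. The dimmest Pax6 probe also passed among the probes detected at p below 0.01 on all 4 arrays (adjusted p = 0.0472).

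**Figure D3:**
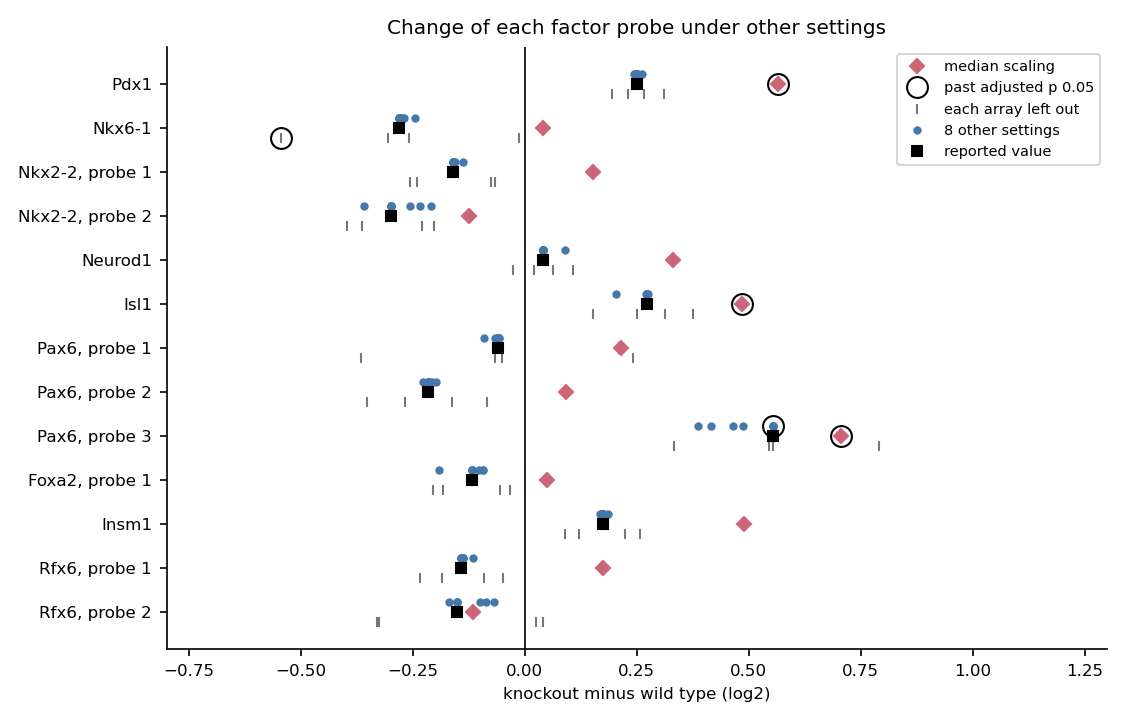
Change of each tested factor probe, knockout minus wild type (log2), as reported (black squares), with median scaling (red diamonds), under 8 other settings (blue points) and with each array left out in turn (grey ticks); open circles mark values past an adjusted p of 0.05. Values with median scaling lie to the right of the reported ones for all 13 probes, and 5 values are circled, for Pdx1, Nkx6-1, Isl1 and the dimmest Pax6 probe.

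Genes that these factors are known to bind, or that carry out beta cell functions, were described from a list of 30, of which 23 were on the array and 21 were tested. Of the 21 genes, 7 (33.3%) rose and 0 fell, where 14.5% of all tested genes rose and 11% fell. The median change of the list was 0.40, or 0.38 with the 1 gene that had only a bound placed at it, beside 0.06 over all tested genes. The genotypes did not overlap, with knockout higher, for 15 of the 21, beside 39.8% of all tested genes.

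Chgb, a granin of the secretory granule, had raw intensities of 5024 and 4581 in wild type and of 16164 and 16433 in knockout, and rose by 1.71 ± 0.14 (log2, SE, adjusted p = 0.000654). G6pc2, the islet glucose-6-phosphatase, rose by 1.13 ± 0.14 (adjusted p = 0.00344), from raw values of 10585 and 10451 to 24841 and 20485, and its other probe rose by 2.02. Pcsk1, a protease that cleaves proinsulin, was at 211 and 223 in wild type and at 429 and 353 in knockout, and rose by 0.97 ± 0.14 (adjusted p = 0.00550). All of these samples separated by genotype, and the calls of Chgb, G6pc2 and Pcsk1 held under each of 13 alternatives.

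Ptprn2, a granule membrane protein gene, rose by 1.04 ± 0.24 (adjusted p = 0.0250) and was above background on just 1 wild type array. Pcx, the mitochondrial pyruvate carboxylase gene, rose by 1.03 ± 0.20 (adjusted p = 0.0155), and Kcnj11, the pore of the ATP-sensitive potassium channel, by 0.82 ± 0.16 (adjusted p = 0.0150). Slc2a2, the glucose transporter gene of mouse beta cells, completed the 7 at 0.56 ± 0.14 (adjusted p = 0.0357). Without wild type 1, the calls of Ptprn2, Pcx, Kcnj11 and Slc2a2 were lost (adjusted p = 0.0635 to 0.0895) and 3 targets passed. Ptprn2 was also lost without knockout 1 (adjusted p = 0.0728). Slc2a2 was also lost when any 1 of the other arrays was left out (adjusted p = 0.0501 to 0.200), and its other probe, at 0.23, did not pass. With no filter on dim probes Ptprn2, Pcx and Slc2a2 did not pass (adjusted p = 0.102, 0.0652 and 0.0681), and with cyclic loess Slc2a2 did not (adjusted p = 0.0519). The marker lists that moved on the same arrays are given above, and their part in the changes of the targets was not tested.

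The remaining 14 targets did not pass. The examples here were chosen after their values were seen. Ins2, an insulin gene, was at 0.13 ± 0.12 and Iapp, the amylin gene, at -0.08 ± 0.13. Abcc8, the partner subunit of Kcnj11, was at 0.40 ± 0.13 (adjusted p = 0.0673), and the zinc transporter gene Slc30a8 at -0.01 ± 0.13. Ero1b, an oxidase gene of the endoplasmic reticulum, was at -0.08 with its brightest probe, while another of its probes fell by 2.05 past the test.

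**Figure D4:**
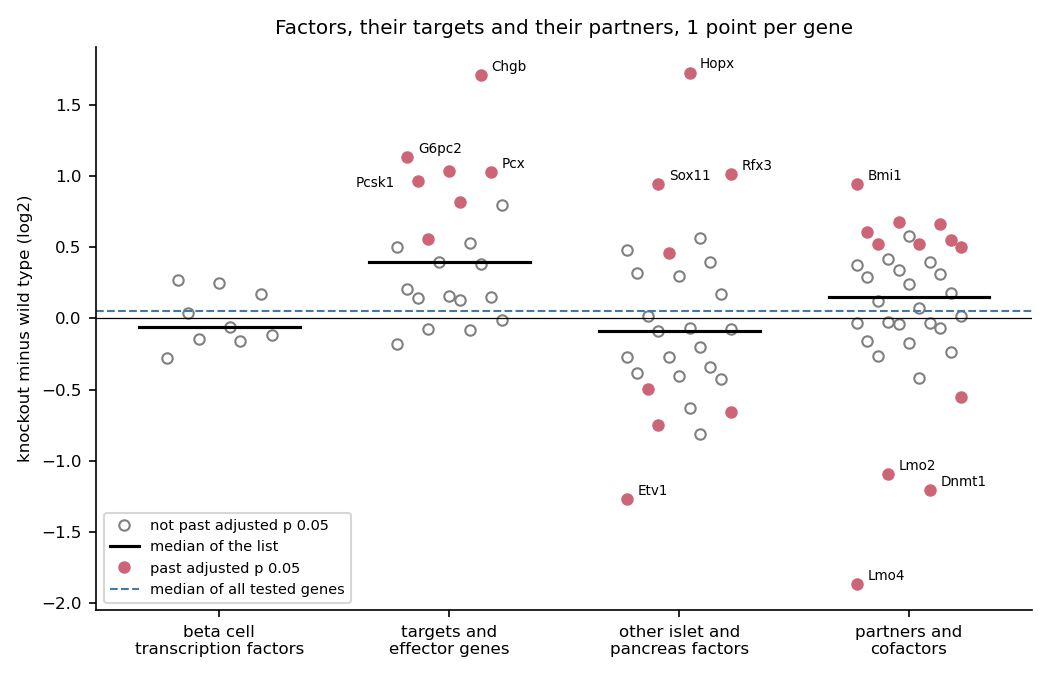
Change of every tested gene (knockout minus wild type, log2, brightest probe) in the 9 factors, 21 targets and effector genes, 27 other islet and pancreas factors and 34 partners and cofactors; filled points passed an adjusted p of 0.05, with the largest changes named (the unnamed point beside Pcx is Ptprn2), black bars are list medians and the dashed line is the median of all tested genes (0.06). The 9 factors lie between -0.28 and 0.27, while the other lists reach 1.71, 1.73 and -1.87.

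Other transcription factors of the islet and pancreas moved in both directions. Of 52 listed, 43 were on the array and 27 tested, and 4 rose and 4 fell (14.8% each, beside 14.5% and 11% of all tested genes), with a median of -0.09. With median scaling 7 rose and 2 fell, where 3517 of all 15639 tested probes rose and 1391 fell. Hopx, an atypical homeodomain protein that does not bind DNA, was at 10.93 and 11.05 in wild type and at 12.90 and 12.54 in knockout, and rose by 1.73 ± 0.16 (adjusted p = 0.00114). Sox11, an HMG-box factor of developing tissue, was above background on 1 of the 2 wild type arrays and rose by 0.94 ± 0.14 (adjusted p = 0.00543). Its other tested probe was not well above background in wild type and at least 2.57-fold higher in knockout (adjusted p = 0.00271). Rfx3, a relative of Rfx6 with a role in beta cell maturation in the mouse, was not well above background in wild type and at least 1.93-fold higher in knockout (adjusted p = 0.00305).

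Etv1, an ETS factor that also stands in the alpha cell list, was at 12.30 and 12.26 in wild type and at 10.75 and 11.27 in knockout, and fell by 1.27 ± 0.19 (adjusted p = 0.00618). The calls of Hopx, Sox11, Rfx3 and Etv1 held under every alternative that tested them. St18, a zinc finger factor of endocrine cells, fell by 0.75 ± 0.14 (adjusted p = 0.0146), a call lost without wild type 1 or 2 and with median scaling (adjusted p = 0.0605 with the latter). Creb1, the cyclic AMP response factor, was not well above background in knockout and at least 1.27-fold lower there (adjusted p = 0.0376), a call lost without wild type 1, wild type 2 or knockout 1, with an offset of 50 (adjusted p = 0.0568) and when dim probes were kept in (adjusted p = 0.103). Tcf7l2 rose by 0.46 and Sox9 fell by 0.50, and both calls were lost when any 1 array was left out. The Sox9 call also did not hold with an offset of 50, no background correction, median scaling, the authors' values, no filter on dim probes, an intensity trend or the replicate block (adjusted p = 0.0507 to 0.0814). That of Tcf7l2 did not hold with cyclic loess, an intensity trend or the block (adjusted p = 0.0518 to 0.0621). The 8 calls of this list became 4 without wild type 1, 4 without wild type 2 and 5 without knockout 1. The 6 of 10 alpha cell markers that fell on the same arrays include Etv1, and their part in these results was not tested.

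Partners and cofactors of the 10 proteins were taken from a list of 41, with 36 on the array and 34 tested. Of these 8 rose (23.5%) and 4 fell (11.8%), beside 14.5% and 11% of all tested genes, and their median change was 0.15. With median scaling 13 rose and 3 fell, where 3517 of all 15639 tested probes rose and 1391 fell. The direct partners Ldb1, the adaptor bound by Isl1, and Tcf3, an E protein that pairs with Neurod1, were at -0.03 ± 0.13 and -0.42 ± 0.18 and did not pass (adjusted p = 0.894 and 0.134); they were named for this role after their values were seen.

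Lmo4 and Lmo2 encode LIM-only proteins, which bind Ldb1 without binding DNA. Lmo4 was at 10.23 and 10.26 in wild type and at 8.34 and 8.41 in knockout, and fell by 1.87 ± 0.12 (adjusted p = 0.00032). Lmo2 fell by 1.09 ± 0.17 (adjusted p = 0.00676), which no longer passed when wild type 2 was left out (adjusted p = 0.0575). Dnmt1, the maintenance DNA methyltransferase, fell by 1.21 ± 0.16 (adjusted p = 0.00381), from 9.29 and 9.46 to 8.01 and 8.33, and the histone deacetylase gene Hdac1 fell by 0.55. The Hdac1 call was lost with median scaling (adjusted p = 0.217), with no filter on dim probes (adjusted p = 0.0824) and without wild type 1, wild type 2 or knockout 1. Lymphocyte markers had a median change of -3.29 on the same arrays, or -2.93 with the 7 genes that had only a bound placed at it, and their part in these falls was not tested.

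Among those that rose, Tle1, a Groucho corepressor of homeodomain factors, was at 8.31 and 8.35 in wild type and at 9.05 and 8.97 in knockout, and rose by 0.68 ± 0.12 (adjusted p = 0.0118), a call lost without wild type 1 or 2. Of its other tested probes, 1 was at 0.39 and did not pass, and 1 was not well above background in wild type and at least 1.76-fold higher in knockout (adjusted p = 0.00477). Bmi1, a Polycomb protein gene, was not well above background in wild type and at least 1.37-fold higher in knockout (adjusted p = 0.0129), and Ldb2, a relative of Ldb1, likewise at least 1.14-fold (adjusted p = 0.0483). Both calls were lost without wild type 1 or 2 and with no filter on dim probes (adjusted p = 0.0502 for Bmi1 and 0.138 for Ldb2). That of Ldb2 was also lost without knockout 2, with an offset of 50 (adjusted p = 0.0746) and with cyclic loess (adjusted p = 0.0505). Without wild type 1 or wild type 2, 3 partners passed in place of 12. They were 0 higher and 3 lower without wild type 1, and 1 higher and 2 lower without wild type 2.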

How the data were processed

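Total islet RNA was labelled as biotinylated cRNA and hybridised to 4 bead arrays, 2 per genotype. Per the file headers, the scanner table the authors deposited gives an average linear intensity for each probe and array, its bead standard error in intensity units, a detection p-value and a count of beads. The second table the authors deposited holds log2 values of 46614 probes, which equal the log2 raw intensity on wild type 1 and keep the rank order of the raw values on every array (rank correlation 1). No source used here names their normalization.

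Intensities were background-corrected with normexp through the detection p-values (limma 3.58.1, R 4.3.3, offset 16), put on the log2 scale and quantile-normalized, and fitted with lmFit and eBayes (6.24 total degrees of freedom). Benjamini-Hochberg adjustment ran over the 15639 tested probes. A gene is represented by its brightest tested probe. The offset shrinks changes of dim probes. A bound ("at least") compares the brighter genotype with the dimmer one, taken on each array as its faintest detected level or the probe itself, whichever is higher. Annotation to exactly 1 gene symbol was given for 29965 probes. With 4 arrays, precision is limited by their number, and the files name no slide or scan batch.

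In raw intensity, arrays of a genotype differed beyond the 95% limit of their bead standard errors at 26.8% (wild type) and 35.9% (knockout) of tested probes. These shares were taken before normalization and so include differences in the brightness of whole arrays. No raw value was identical between the arrays of a genotype, so none was taken for an array deposited again. They were counted as separate samples because the labels list them so. Bead errors do not tell repeat hybridisations from separate animals. The members and lists were chosen with earlier results of these data known. From each list besides the members, up to 6 called genes with the largest change were named, and of the cell type markers the lowest and highest change. Slc2a2, Tcf7l2, Sox9 and Hdac1 fall outside that rule and were named after their values were seen.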

Additional observations from a re-analysis of the deposited data

How the results depend on the processing

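The result that 0 factor probes passed held with an offset of 50, no background correction, cyclic loess, the authors' processed values, no filter on dim probes, an intensity trend and the replicate block. With median scaling 3 of the 13 passed, where 4908 of all 15639 tested probes passed, 3517 higher and 1391 lower. When only probes detected at p below 0.01 on all 4 arrays were tested, 1 passed, where 2495 of 9927 probes passed in all. Leaving out each array in turn gave 0 to 1, the 1 being Nkx6-1 without knockout 1. The median change of the factor genes was 0.21 with median scaling and ran from -0.066 to 0.064 as arrays were left out. With median scaling the sign turned for Foxa2 (0.050), Nkx6-1 (0.040), the brighter probes of Nkx2-2 (0.15) and Rfx6 (0.17) and the 2 brighter Pax6 probes (0.21 and 0.092). As arrays were left out, the dimmer Rfx6 probe ran from -0.33 to 0.040, Neurod1 from -0.027 to 0.11 and the brightest Pax6 probe from -0.37 to 0.24. Over all tested probes 3988 passed, or 1418 to 3845 with 1 array fewer, with 1567 without wild type 1 and 1418 without wild type 2. The share of calls that were higher was 55.2%, or 71.7% with median scaling, 49.3% with cyclic loess, 42.2% without wild type 1 and 46.2% without wild type 2. The 7 target calls became 11 with no background correction, 11 with an intensity trend, 4 with no filter on dim probes and 3 to 9 with 1 array fewer. Other factors had 4 to 10 calls and partners 3 to 9 with 1 array fewer. Apart from the fewer arrays or probes, the cause was not tested. Same-numbered arrays did not deviate together (correlation 0.018), so the numbers were not taken as pairs. With the replicate number as a block 3917 probes, 0 factor probes, 10 targets, 7 other factors and 12 partners passed. The called genes of the 3 lists kept their sign in every alternative that tested them. The other genes named outside the factors were not run under the alternatives.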
